A study of Mus musculus with 8 samples.

Results

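Toll-like receptors are membrane proteins with which macrophages recognise molecules of microbes. The members described here are 10 listed genes, *Tlr1*, *Tlr2*, *Tlr3*, *Tlr4*, *Tlr6*, *Tlr7*, *Tlr8*, *Tlr9*, *Tlr13* and the co-receptor gene *Cd14*. They were listed by gene name, but with earlier results of these data known. A probe was found for 9 of the 10 genes, with 10 probes in all among the 41174 distinct probes of the array, and the expression of *Tlr13* was not analysed here. A filter on dim probes kept 8 of the 10 genes among 15182 genes in all, and *Tlr8* did not pass it.

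The cells were RAW 264.7, a macrophage-like line of BALB/c mouse origin. Cultures received *Bacillus clausii*, *Bifidobacterium bifidum* or *Lactobacillus acidophilus* for 6 hours, at a multiplicity of infection (bacteria added per cell) of 1, or were left untreated for the same time. On every two-colour Agilent array the Cy5 dye marked RNA of treated cells and the Cy3 dye RNA of untreated cells, so a log2 ratio below 0 means a lower signal in treated cells. *B. clausii* and *B. bifidum* had 3 arrays each and *L. acidophilus* had 2. The design text states 3 biological replicates for each condition, but no label ties an array to a culture of its own, and the p-values below measure the spread between arrays, which may be technical. Untreated RNA was present only as the other channel of each array, so a ratio tested against 0 leaves out the spread of untreated cells among themselves. RAW 264.7 is a single transformed line, and the bacteria were given as 1 dose and 1 time.

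TLR2 sits at the cell surface and recognises bacterial lipoproteins as a pair with TLR1 or with TLR6. TLR4 also sits at the surface and recognises lipopolysaccharide together with MD-2, to which CD14 hands the lipid. TLR3, TLR7, TLR8, TLR9 and TLR13 reside in endosomes, where they sense nucleic acids: double-stranded RNA for TLR3, single-stranded RNA for TLR7 and TLR8, unmethylated CpG DNA for TLR9 and bacterial ribosomal RNA for TLR13. UNC93B1 carries the endosomal receptors out of the endoplasmic reticulum. Most of these receptors signal through the adaptor MYD88 to NF-kB, and TLR3 signals through TICAM1.

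The arrays lay on 2 slides, and this division runs through all the results below. Slide 1, scanned in an extended range, carried replicate 3 of *B. bifidum*, replicate 3 of *B. clausii* and the *L. acidophilus* pair. Slide 2 carried replicates 1 and 2 of the *Bacillus* and of the *Bifidobacterium*. The array of *B. clausii* replicate 3 stood apart, with a grid that the scanner software did not rate as good and 12514 probes above background, against 21453 to 26453 on the other 7 arrays. Its Cy3 levels correlated at 0.903 to 0.910 over genes with the other slide 1 arrays, which correlated at 0.996 to 0.997 among themselves. Macrophage markers fitted the label of the line: 10 of 10 were well above background in untreated RNA on at least 7 arrays, and 7 were on all 8. Of dendritic cell, fibroblast and epithelial markers, 0 of 7, 0 of 6 and 0 of 5 reached 7 arrays. Single markers of other cells did, among them *S100a8* and *Mpo* of 6 neutrophil markers and *Cd4* of 7 T or NK cell markers.

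The upstream DNA of 3 members that were lower together on slide 2, *Tlr2*, *Tlr1* and *Tlr6*, and of *Tlr9*, which was not, is shown where it held motifs of factors that act in macrophages. RefSeq upstream windows of build GRCm38.p6 matched 7 of the members searched, with 9 start sites. None was at hand for *Tlr4* or *Tlr7*, and *Cd14* was not searched. The 250 bases before each start were searched on both strands for an NF-kB motif, for AP-1 (TGANTCA), for an interferon-stimulated element (ISRE, GAAA, any 2 bases and GAAA again), for a PU.1 core (GAGGAA) and for Sp1 (GGGCGG). Of 32851 such windows, 7.25% held the NF-kB motif, 6.75% AP-1, 2.98% the ISRE, 23.3% the PU.1 core and 32.7% Sp1. Stretches of 30 bases around matches are given 5′ to 3′ on the gene's strand, with the matches in capitals:
*Tlr2*, NF-kB, chr3:83841762-83841791, minus strand: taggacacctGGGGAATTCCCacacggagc
*Tlr2*, Sp1, chr3:83841660-83841689, minus strand: gcagacccctgtGGGCGGcgcttgccgcac
*Tlr6*, ISRE, chr5:64959260-64959289, minus strand: ctattctTTTCTCTTTCACTTTCtgtttga
*Tlr1*, PU.1, chr5:64933564-64933593, minus strand: aattaaatgttgGAGGAAgtaggagcttga
*Tlr9*, AP-1, chr9:106222528-106222557, plus strand: gcaaatgatgtgTGACTCAttgtaccacct

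The 11 capitals of *Tlr2* are 2 overlapping NF-kB matches, and its window held 2 Sp1 matches, of which 1 is shown. The capitals of *Tlr6* are 2 overlapping ISRE matches read on the opposite strand. The window of *Tlr1* held a PU.1 match alone, and that of *Tlr9* held an AP-1 and a PU.1 match. The second start sites of *Tlr1* and *Tlr6* held no match to any of the 5 motifs. Of the windows not shown, that of *Tlr3* held an NF-kB match and those of *Tlr8* and *Tlr13* a PU.1 match each. The stretches of *Tlr2*, *Tlr1* and *Tlr6* lie inside the outermost bounds of their genes in RefSeq, which reach upstream of the start searched. That of *Tlr9* lies before its gene. No motif was shared by *Tlr2*, *Tlr1* and *Tlr6*. A match is a run of letters and no evidence of binding.

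Over all 8 arrays and without a term for the slide, none of the 8 members tested passed in any strain. The values of *Tlr1*, *Tlr2*, *Tlr4* and *Tlr6* separated by slide, and the share of all genes that did so is not given here. For *B. clausii* against untreated cells 0 of 8 members were called (limma, Benjamini-Hochberg adjusted p under 0.05 over all genes), where 4.77% of all genes were. For *B. bifidum* it was 0 of 8, against 1.73% of all genes, and for *L. acidophilus* 0 of 8, against 0%. At an unadjusted p under 0.05, 4 members passed with *B. clausii*, 2 with *B. bifidum* and 0 with *L. acidophilus*, against 30.7%, 18.9% and 7.23% of all genes. With slide as a block, *Tlr1*, *Tlr2* and *Tlr6* were lower with *B. clausii* (limma adjusted p = 0.0222, 0.00303 and 0.00566, with 25.3% of all genes called) and *Tlr1* with *B. bifidum* (limma adjusted p = 0.0172, with 14% of all genes called). A strain's value in that fit stands midway between the slides, so it still holds part of the slide difference. The fit also gives all strains the same slide difference, while that of *Tlr2* was -0.83 within *B. clausii* and -0.38 within *B. bifidum*. The *B. clausii* and *B. bifidum* means differed past the threshold for 0 of 8 members, also for 0 at an unadjusted p under 0.05, and 0.0263% of all genes were called. *L. acidophilus* was not told apart either, with 0 of 8 members called from *B. clausii* (0.0132% of all genes) and 0 of 8 from *B. bifidum* (0% of all genes).

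**Figure D1:**
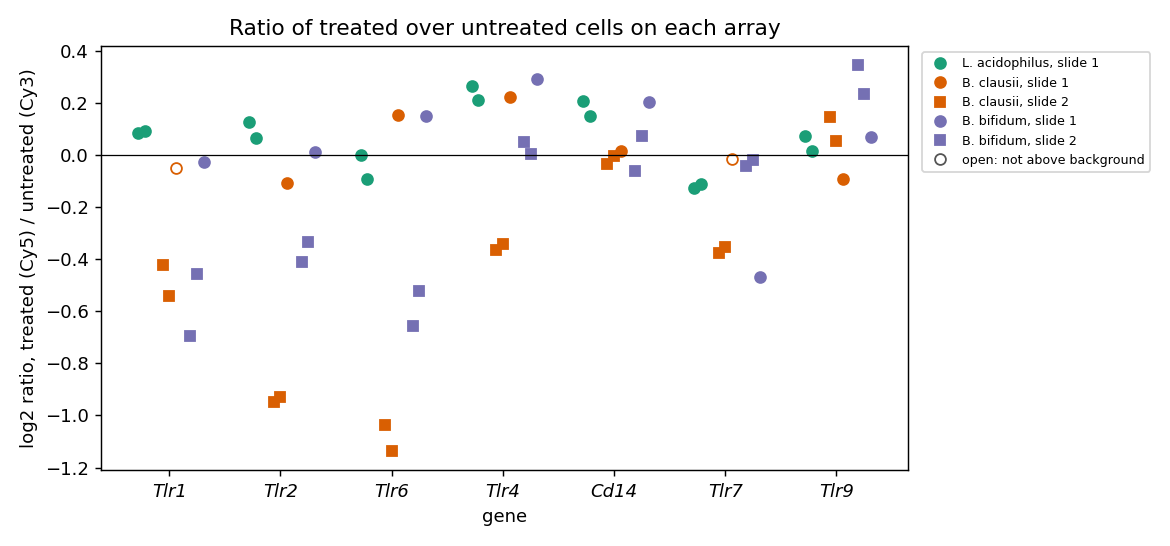
Log2 ratio of treated (Cy5) over untreated (Cy3) cells on each of the 8 arrays for 7 members, with 1 point for each array, colours for strains, circles for slide 1, squares for slide 2, and open symbols where the probe was not well above background in either channel. The squares of *Tlr1*, *Tlr2*, *Tlr4* and *Tlr6* lie below all circles of the same gene, and the *B. clausii* squares of *Tlr2* and *Tlr6* are near -0.94 and -1.09.

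*Tlr2*, the shared partner of the surface lipoprotein receptors, had log2 ratios of 0.13 and 0.07 on the *L. acidophilus* arrays. With *B. clausii* they were -0.95 and -0.93 on slide 2 and -0.11 on slide 1 (replicates 1, 2 and 3). With *B. bifidum* they were -0.41 and -0.33 on slide 2 and 0.01 on slide 1. The 4 arrays of slide 2 were thus the 4 lowest, and within slide 2 both *B. clausii* arrays were below both *B. bifidum* arrays. Over all 8 arrays the *B. clausii* mean was -0.66 ± 0.16 (SE, n = 3, limma adjusted p = 0.0504), just outside the threshold. With slide as a block it was -0.56 (limma adjusted p = 0.00303), inside the threshold, as a value midway between the slides. On slide 2 alone *Tlr2* fell by 0.94 ± 0.04 with *B. clausii* (SE, n = 2, limma adjusted p = 0.000146) and by 0.37 ± 0.04 with *B. bifidum* (n = 2, limma adjusted p = 0.00242), which are signals at 0.521 and 0.773 of the untreated level. In bulk RNA of a culture, fewer cells with a transcript and less of it per cell cannot be told apart.

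*Tlr6*, which pairs with TLR2 for diacylated lipoproteins, varied most among the members, over a range of 1.29 between its lowest and highest log2 ratio. Its log2 ratios were -1.04 and -1.14 with *B. clausii* on slide 2 and 0.16 on slide 1. They were -0.66 and -0.52 with *B. bifidum* on slide 2 and 0.15 on slide 1, and 0.00 and -0.09 with *L. acidophilus*. Both strains thus went from a ratio above 0 on slide 1 to one below -0.5 on slide 2, and the slides did not overlap. On slide 2 it fell by 1.09 ± 0.05 with *B. clausii* (SE, n = 2, limma adjusted p = 0.000157) and by 0.59 ± 0.05 with *B. bifidum* (limma adjusted p = 0.00119).

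*Tlr1*, which pairs with TLR2 for triacylated lipoproteins, had log2 ratios of 0.09 and 0.09 with *L. acidophilus*. They were -0.42 and -0.54 with *B. clausii* and -0.69 and -0.46 with *B. bifidum* on slide 2. On slide 1 they were -0.05 for *B. clausii*, where the probe was not well above background in either channel, and -0.03 for *B. bifidum*. Here *B. clausii* and *B. bifidum* overlapped on slide 2, unlike for *Tlr2* and *Tlr6*. On slide 2 *Tlr1* fell by 0.48 ± 0.07 with *B. clausii* (SE, n = 2, limma adjusted p = 0.00312) and by 0.58 ± 0.07 with *B. bifidum* (limma adjusted p = 0.00264).

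*Tlr4*, the lipopolysaccharide receptor, had log2 ratios of 0.26 and 0.21 with *L. acidophilus*, 0.22 with *B. clausii* and 0.29 with *B. bifidum* on slide 1. On slide 2 they were -0.37 and -0.34 with *B. clausii* and 0.05 and 0.00 with *B. bifidum*. All 4 slide 1 arrays were above all 4 slide 2 arrays, and only the *B. clausii* arrays of slide 2 were below 0. On slide 2 *Tlr4* fell by 0.35 ± 0.04 with *B. clausii* (SE, n = 2, limma adjusted p = 0.00155), and with *B. bifidum* it was 0.03 ± 0.04 (limma adjusted p = 0.653).

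*Cd14*, the lipid-transfer co-receptor, varied least, over a range of 0.27. Its log2 ratios were 0.21 and 0.15 with *L. acidophilus*, -0.03, 0.00 and 0.01 with *B. clausii*, and -0.06, 0.07 and 0.21 with *B. bifidum* (replicates in order). The slides overlapped, and no strain passed: the estimates over all 8 arrays were 0.18 ± 0.09 (SE, n = 2, limma adjusted p = 0.718), -0.01 ± 0.07 (n = 3, limma adjusted p = 0.952) and 0.07 ± 0.07 (n = 3, limma adjusted p = 0.632) in the same order.

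The repeat spots showed the spread within a single array. Over all probes with repeat spots, *B. clausii* replicate 3 had a median coefficient of variation (SD over mean) of 67.4% in Cy3 and 72.5% in Cy5. On the other arrays it was 14.0% to 20.2% in Cy3 and 15.7% to 21.5% in Cy5. The spots of *Tlr2* and *Tlr4* below are of 2 probes only. The probes of *Tlr2* and *Tlr4* were each printed at 10 spots, while those of the other members had 1 spot. Of *Tlr2*, all 10 spots were below 0 on both *B. clausii* arrays of slide 2, at -1.06 to -0.69 on replicate 1 and -1.07 to -0.68 on replicate 2. All 10 were also below 0 on *B. clausii* replicate 3, but at -0.21 to 0.00. Of *Tlr4*, all 10 spots were below 0 on both *B. clausii* arrays of slide 2, while 0 of 9 were on *B. clausii* replicate 3, where 1 outlying spot had been removed. The SD over spots of 1 array was 0.06 to 0.11 for *Tlr2* and *Tlr4*, smaller than the gap between the slides for *B. clausii*. Spots of an array share their RNA and measure technical spread only.

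**Figure D2:**
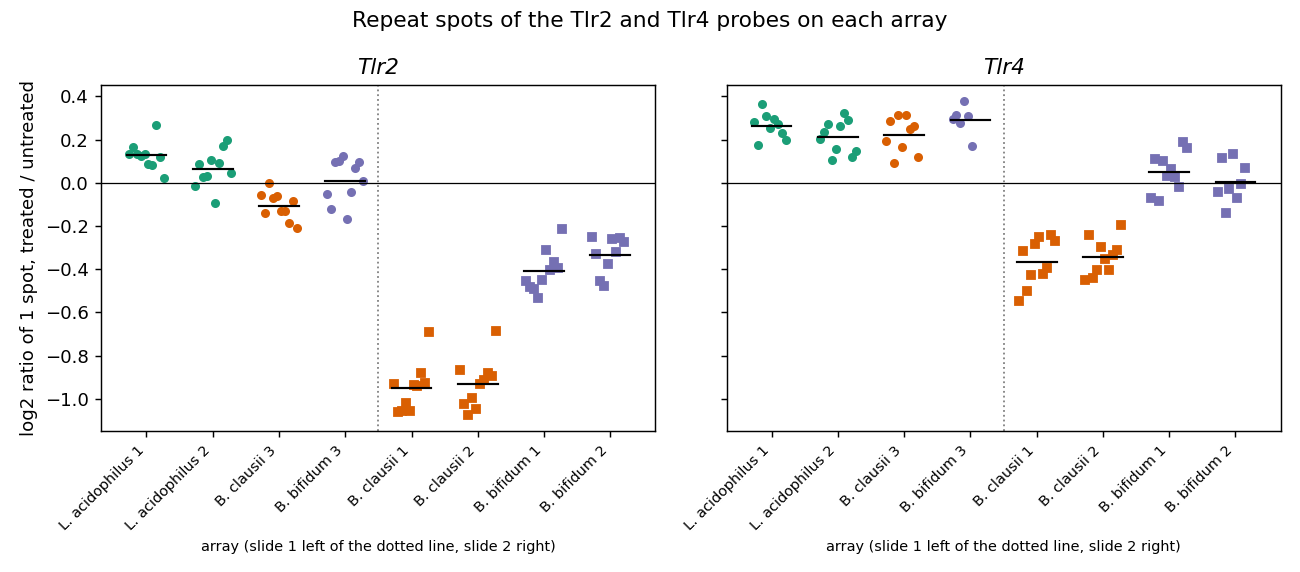
Log2 ratio (treated over untreated) of every retained repeat spot of the *Tlr2* and *Tlr4* probes on each array, with a bar at the mean, slide 1 left and slide 2 right of the dotted line. The *B. clausii* spots of slide 2 lie between -1.07 and -0.68 for *Tlr2* and do not overlap those of *B. bifidum* on slide 2.

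The endosomal receptors did not move as a group. *Tlr7*, a sensor of single-stranded RNA, had log2 ratios of -0.37 and -0.35 with *B. clausii* on slide 2 and -0.04 and -0.02 with *B. bifidum* there. On slide 1 they were -0.13 and -0.11 with *L. acidophilus* and -0.47 with *B. bifidum*, and -0.01 for *B. clausii* replicate 3, where the probe was not well above background in either channel. The lowest array was thus a *B. bifidum* array of slide 1, and the slides overlapped, unlike for the surface receptors other than *Cd14*. On slide 2 *Tlr7* fell by 0.36 ± 0.04 with *B. clausii* (SE, n = 2, limma adjusted p = 0.00133), and with *B. bifidum* it was -0.03 ± 0.04 (limma adjusted p = 0.614).

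*Tlr9*, the CpG DNA sensor, had log2 ratios of 0.07 and 0.02 with *L. acidophilus*. They were 0.15, 0.05 and -0.09 with *B. clausii* and 0.35, 0.23 and 0.07 with *B. bifidum* (replicates 1, 2 and 3, the last on slide 1). It was the only member with a called rise, 0.29 ± 0.05 with *B. bifidum* on slide 2 (SE, n = 2, limma adjusted p = 0.00917). With *B. clausii* there it was 0.10 ± 0.05 (limma adjusted p = 0.158).

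*Tlr3*, the double-stranded RNA sensor, was not well above background in untreated RNA on any array with either of its 2 probes. In treated RNA each probe was above background on 2 of 8 arrays, the first on both *L. acidophilus* arrays and the other on *L. acidophilus* replicate 1 and *B. clausii* replicate 3. *Tlr8*, a further single-stranded RNA sensor, was not well above background in either channel on any of the 8 arrays. Ratios of these probes compare signals near background and are not read as changes here.

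On slide 2 the members lay on the lower side with *B. clausii*. Of 8 members 5 were lower (*Tlr1*, *Tlr2*, *Tlr4*, *Tlr6* and *Tlr7*) and 0 higher, where 56% of all genes were called, 30.3% lower and 25.7% higher. The members' median log2 ratio was -0.36 and that of all genes -0.01. With *B. bifidum* 3 were lower (*Tlr1*, *Tlr2* and *Tlr6*) and 1 higher (*Tlr9*), where 38.8% of all genes were called, 23.7% lower and 15.1% higher, and both medians were -0.01. So many genes were called on slide 2 that such counts mark the members apart from other genes only weakly. On slide 1, where *B. clausii* and *B. bifidum* had 1 array each with only the *L. acidophilus* pair to estimate the spread, 0 of 8 members were called for any strain (0.053% of all genes for *B. clausii* and 0.0463% for *B. bifidum*).

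Both strains lay side by side on slide 2, which allowed a comparison within 1 slide. *Tlr2* was lower with *B. clausii* than with *B. bifidum* by a log2 difference of -0.57 ± 0.06 (SE, 2 arrays against 2, limma adjusted p = 0.00305). *Tlr6* differed by -0.50 ± 0.08 (limma adjusted p = 0.00813), *Tlr4* by -0.38 ± 0.06 (limma adjusted p = 0.00848) and *Tlr7* by -0.33 ± 0.06 (limma adjusted p = 0.012). These 4 of 8 members were lower and 0 higher, against 29.7% of all genes called, 14.7% lower and 14.9% higher. For *Tlr1* the difference was 0.09 ± 0.10 (limma adjusted p = 0.546), with a 95% interval from -0.16 to 0.35, and for *Cd14* it was -0.03 ± 0.07 (limma adjusted p = 0.824). *Tlr9* was at -0.19 ± 0.07 (limma adjusted p = 0.117). The *B. clausii* and *B. bifidum* arrays of slide 1 differed by -0.12 for *Tlr2*, 0.01 for *Tlr6*, -0.07 for *Tlr4* and 0.45 for *Tlr7*, so that for *Tlr6* and *Tlr7* the sign was not that of slide 2, with 1 array a strain and *Tlr7* not above background on 1 of them.

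**Figure D3:**
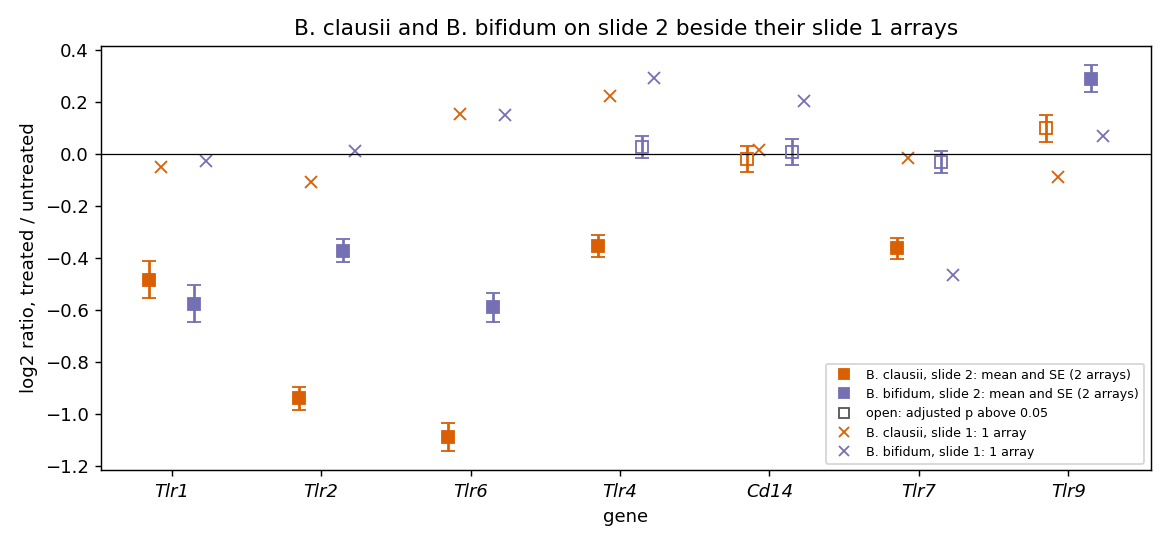
Mean log2 ratio (treated over untreated) on slide 2 with its SE (squares, 2 arrays a strain, open where the adjusted p was above 0.05), beside the single slide 1 array of the same strain (crosses). *Tlr2*, *Tlr6*, *Tlr4* and *Tlr7* are lower with *B. clausii* than with *B. bifidum* on slide 2, at -0.94 against -0.37 for *Tlr2*, while the slide 1 crosses of *Tlr2*, *Tlr6* and *Tlr4* lie at or above -0.11.

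With strain in the model, the log2 ratio of 4 of 8 members differed between slides, all lower on slide 2, where 25.9% of all genes were called, 15.8% lower and 10.1% higher. The differences were -0.99 ± 0.12 for *Tlr6* (SE, limma adjusted p = 0.00128), -0.61 ± 0.11 for *Tlr2* (limma adjusted p = 0.00567), -0.49 ± 0.09 for *Tlr1* (limma adjusted p = 0.00695) and -0.42 ± 0.09 for *Tlr4* (limma adjusted p = 0.0116). For these 4 genes the slides did not overlap, and the share of all genes with such a separation is not given here. With the scanner software's own processed signals *Tlr1* was at -0.75 and *Tlr4* at -0.40 and neither passed (limma adjusted p = 0.0595 and 0.0867). With the authors' deposited value table *Tlr4* was at -0.42 and did not pass (limma adjusted p = 0.0752). Within *B. clausii* alone *Tlr2* was lower on slide 2 by -0.83 ± 0.07 (limma adjusted p = 0.000795), and within *B. bifidum* alone by -0.38 ± 0.07 (limma adjusted p = 0.0117), each with 2 arrays against 1. On *B. clausii* replicate 3, the only slide 1 array of that strain, *Tlr1* and *Tlr7* were not well above background in either channel. *Tlr7* had a slide difference of 0.04 ± 0.16 (limma adjusted p = 0.867), which was -0.35 within *B. clausii* and 0.44 within *B. bifidum*. Within these strains 38.7% and 29.7% of all genes were called between slides.

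The untreated channel also differed by slide, in the Cy3 level of a probe after normalization between arrays. *Tlr2* had untreated log2 Cy3 levels of 13.26, 13.32, 14.05 and 13.18 on slide 1 (*L. acidophilus* 1 and 2, *B. clausii* 3, *B. bifidum* 3). On slide 2 they were 14.10, 14.20, 14.11 and 14.30 (*B. clausii* 1 and 2, *B. bifidum* 1 and 2). The slides did not overlap, and the high slide 1 value was that of *B. clausii* replicate 3. The slide difference was 0.72 ± 0.20 (SE, 4 arrays against 4, limma adjusted p = 0.0264), and 0.92 ± 0.08 without *B. clausii* replicate 3 (limma adjusted p = 5.63e-05). It no longer passed when any 1 of the other 7 arrays was left out (limma adjusted p = 0.0552 to 0.0746).

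*Tlr4* levels in untreated RNA were 10.39, 10.41, 10.61 and 10.25 on slide 1 and 11.03 to 11.04 on 3 arrays of slide 2, with *B. bifidum* replicate 1 just below them. *Cd14* went the other way, with 16.00, 15.92, 16.01 and 15.93 on slide 1 and 15.31, 15.31, 15.25 and 15.19 on slide 2. For both genes the slides were apart by more than the spread within a slide. *Tlr4* was higher on slide 2 by 0.61 ± 0.11 (SE, limma adjusted p = 0.00436), and *Cd14* differed by -0.70 ± 0.09 (limma adjusted p = 0.0011), which was -0.44 with the scanner's processed signal (limma adjusted p = 0.0626). *Cd14* was the brightest case for the scan range: its raw Cy3 intensity was at most 44226 on slide 2, below the ceiling of 65526 there, and reached 145762 on slide 1, whose ceilings were 633884 or more. No spot of a member was saturated.

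In all 4 of 8 members were called between slides in untreated RNA, against 27.1% of all genes (16.5% higher, 10.6% lower): *Tlr2* and *Tlr4* higher, *Cd14* and the near-background *Tlr3* lower on slide 2. With the scanner's processed Cy3 signal the 4 called were all higher on slide 2 (35.7% of all genes called): *Tlr2* and *Tlr4* as before, with *Tlr1* at 1.07 (limma adjusted p = 0.0109) and *Tlr6* at 0.50 (limma adjusted p = 0.0147) in place of *Cd14* and *Tlr3*. Without *B. clausii* replicate 3 there were 6 of 8, against 52.3% of all genes, the additions being *Tlr1* at 0.25 ± 0.06 (limma adjusted p = 0.0105) and *Tlr6* at 0.65 ± 0.09 (limma adjusted p = 0.00064). On that array the Cy3 levels of *Tlr6*, 9.71, and of *Tlr9*, 9.28, were the highest of all 8, and *Tlr1* and *Tlr7* were not above background. The median shift of all genes was 0.09. Other genes differed between slides in the untreated channel too. Of 10 macrophage markers, 2 were higher and 4 lower on slide 2 (median -0.26). Of 4 neutrophil markers tested 3 were lower (median -2.02), with a mean log2 Cy3 level of the list of 9.68 to 9.83 on slide 1 arrays and 6.73 to 6.86 on slide 2 arrays. Of 14 inflammatory target genes 10 were lower and 1 higher (median -1.97). Their part in the members' slide differences was not tested. The slide, the scan range and the untreated culture cannot be told apart here, since no label says which arrays share untreated RNA.

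**Figure D4:**
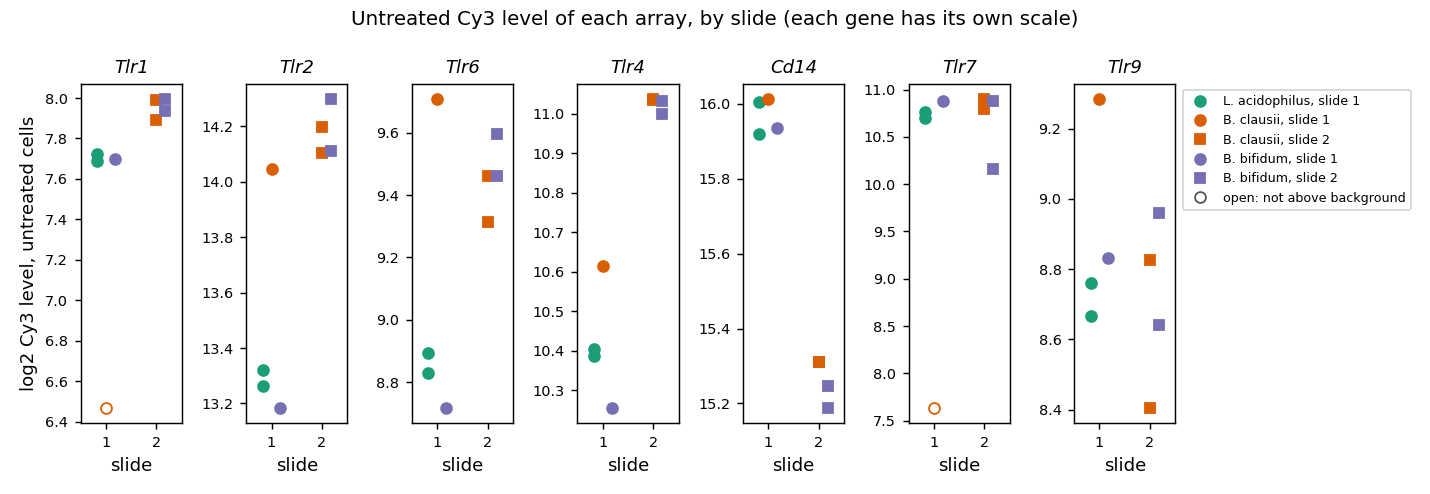
Log2 Cy3 level of untreated cells on each array, by slide, for 7 members, each with its own vertical scale. Colours are the strains whose treated RNA shared the array, and open symbols are probes not well above background in Cy3. *Tlr2* and *Tlr4* are higher on slide 2 (squares) and *Cd14* is lower, and *B. clausii* replicate 3 stands apart on slide 1 for *Tlr1*, *Tlr2*, *Tlr6*, *Tlr7* and *Tlr9*.

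The Cy3 level is also the denominator of the ratio, so both slide differences share it. For *Tlr2* the treated log2 Cy5 levels were 13.39, 13.39, 13.94 and 13.19 on slide 1. On slide 2 they were 13.15 and 13.27 with *B. clausii* and 13.70 and 13.96 with *B. bifidum*. Treated levels of the slides overlapped, with means of 13.48 ± 0.32 on slide 1 and 13.52 ± 0.38 on slide 2 (SD, n = 4 each), while untreated levels were 13.45 ± 0.40 and 14.18 ± 0.09. For *Tlr6* treated levels were 9.09 ± 0.52 on slide 1 and 8.62 ± 0.39 on slide 2, and for *Tlr4* 10.66 ± 0.12 and 10.86 ± 0.21. How much of the slide difference in the ratio came from the untreated channel was not tested.

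The ratios of the surface receptors followed each other over the 8 arrays. Pearson's r was 0.98 between *Tlr2* and *Tlr4*, 0.96 between *Tlr4* and *Tlr6*, 0.95 between *Tlr2* and *Tlr6*, and 0.83 between *Tlr1* and *Tlr6*. *Tlr1* had r of 0.78 to *Tlr2* and 0.72 to *Tlr4*. For *Cd14*, r was 0.81 to *Tlr1*, 0.77 to *Tlr2*, 0.71 to *Tlr6* and 0.69 to *Tlr4*. *Tlr9* went with r of -0.73 to *Tlr1* and *Tlr7* with r of 0.26 to *Tlr6*. The points share slides and fall into a slide 1 and a slide 2 cluster for the surface receptors, so these values describe the slide division as much as the genes, and no p is given. Among 14885 genes, those with ratios most like *Tlr6* included *Ddah2* (r = 0.998), *Bcas1* (0.996), *Cks2* (0.994) and *Fkbp15* (0.993), over the same 8 arrays and the same slide division.

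Other genes of the pathway were counted from lists, on slide 2 unless said otherwise, beside the same background of 56% called (30.3% lower) for *B. clausii* and 38.8% (23.7% lower) for *B. bifidum*. No gene of any list was called for *L. acidophilus*. Of 10 co-receptors and accessory proteins, 8 fell and 1 rose with *B. clausii* (median -0.49), and 1 fell and 4 rose with *B. bifidum* (median 0.09). *Ly86*, which encodes MD-1, the partner of the TLR4-like receptor CD180, fell by 1.24 ± 0.05 with *B. clausii* (SE, n = 2, limma adjusted p = 0.00012) and by 1.07 ± 0.05 with *B. bifidum* (limma adjusted p = 0.000373). In untreated RNA *Ly86* was higher on slide 2 by 2.66 ± 0.10 (SE, limma adjusted p = 1.49e-06). Of this list 2 genes were higher there and 1 lower, against 27.1% of all genes called. *Ly96*, which encodes the TLR4 partner MD-2, was lower with *B. clausii* than with *B. bifidum* by -0.79 ± 0.07 (limma adjusted p = 0.00204). *Hmgb1*, a nuclear protein that can act as a TLR ligand outside cells, rose by 1.25 ± 0.04 with *B. clausii*, and over all 8 arrays by 0.92 ± 0.18 (limma adjusted p = 9.8e-05 and 0.0396), although its 3 probes ranged from 0.28 to 1.25 on slide 2.

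Of 12 genes for folding, trafficking and cleavage of the receptors, 6 fell and 3 rose with *B. clausii*, and 4 fell and 5 rose with *B. bifidum*. *Unc93b1*, the carrier of the endosomal receptors, fell by 1.06 ± 0.04 with *B. clausii* (SE, n = 2, limma adjusted p = 0.00012) and by 0.43 ± 0.04 with *B. bifidum* (limma adjusted p = 0.00143). It also passed for *B. clausii* over all 8 arrays, at -0.77 ± 0.18 (limma adjusted p = 0.0486). *Ctsb*, which encodes the lysosomal protease cathepsin B, fell by 1.02 ± 0.05 with *B. clausii* (limma adjusted p = 0.000147). *Hsp90b1*, the chaperone that folds most Toll-like receptors, rose by 0.39 ± 0.04 (limma adjusted p = 0.00114).

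Of 23 adaptors and kinases, 11 fell and 4 rose with *B. clausii* (median -0.17), and 6 fell and 6 rose with *B. bifidum* (median 0.03). *Irak2*, a kinase of the MYD88 complex, rose by 1.28 ± 0.05 with *B. bifidum* (SE, n = 2, limma adjusted p = 0.000344) and was lower with *B. clausii* than with *B. bifidum* by -1.42 ± 0.07 (limma adjusted p = 0.000908). *Tirap*, the adaptor that brings MYD88 to TLR2 and TLR4, fell by 0.43 ± 0.05 with *B. clausii* (limma adjusted p = 0.00114). Of 11 transcription factors, 4 fell and 4 rose with *B. clausii*, and 4 fell and 2 rose with *B. bifidum*. Among them *Irf7*, a factor downstream of TLR7 and TLR9, fell by 1.34 ± 0.04 with *B. clausii*, and *Jun*, a subunit of AP-1, rose by 0.96 ± 0.05 (limma adjusted p = 9.8e-05 and 0.000152).

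Of 15 genes that restrain the pathway, 6 fell and 6 rose with *B. clausii*, and 4 fell and 2 rose with *B. bifidum*. *Irak3*, an inhibitory kinase homologue, fell by 0.95 ± 0.07 (its 3 probes ranged from -0.95 to -0.35) and *Tnfaip3*, which encodes the NF-kB inhibitor A20, rose by 0.93 ± 0.07 with *B. clausii* (limma adjusted p = 0.00031 for each). Of 12 cytosolic sensors, 8 fell and 2 rose with *B. clausii* (median -0.57), and 8 fell and 0 rose with *B. bifidum* (median -0.32). *Nod1*, a sensor of peptidoglycan fragments, fell by 1.08 ± 0.05 and 0.45 ± 0.05 (limma adjusted p = 0.000133 and 0.00176). Of 14 inflammatory target genes, 2 fell and 6 rose with *B. clausii*, and 6 fell and 2 rose with *B. bifidum*. The chemokine gene *Cxcl10* rose by 1.09 ± 0.05 with *B. clausii* and fell by 0.54 ± 0.05 with *B. bifidum* (limma adjusted p = 0.00012 and 0.000952). *B. clausii* replicate 3 (slide 1) had opposite-sign log2 ratios for *Ly86* (0.31), *Ctsb* (0.47), *Nod1* (0.26), *Tnfaip3* (-0.20), *Cxcl10* (-0.19) and *Jun* (-0.01). It kept the slide 2 sign for *Hmgb1* (0.26), *Unc93b1* (-0.18), *Irak3* (-0.18), *Hsp90b1* (0.09), *Tirap* (-0.04) and *Irf7* (-0.03). On *B. bifidum* replicate 3 the ratios were 0.11 for *Ly86*, 0.15 for *Unc93b1*, 0.39 for *Nod1*, 0.17 for *Irak2* and -0.21 for *Cxcl10*.

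Macrophage markers were also called on slide 2. With *B. clausii* 8 of 10 fell and 1 rose, at a median of -0.65. Of all genes 56% were called there, 30.3% lower and 25.7% higher. With *B. bifidum* 4 fell and 1 rose, at a median of -0.04, where 38.8% of all genes were called, 23.7% lower and 15.1% higher. The mean log2 Cy3 level of the list in untreated RNA was 10.04 to 10.82 on slide 1 arrays and 10.38 to 10.52 on slide 2 arrays. Whether the members' values on slide 2 go with these markers was not tested.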

How the data were processed

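Spots and their background were read as linear intensity values from the scanner text files as deposited. Their headers give Agilent's Feature Extraction as release 10.7.3.1, while 10.5.1.1 stands in the submitters' processing notes. They and the authors' deposited value table also hold a log10 ratio of Cy5 over Cy3. Both agreed within 0.005, and every column of the deposited table has a median of 0. From the median signals, log2 ratios and log2 Cy3 levels were computed here, not by the authors, with limma 3.58.1 in R 4.3.3: normexp background (offset 50), loess within arrays, and Aquantile between arrays for levels. Control and outlier spots were left out and spots of a probe averaged.

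Probes were named by transcript through a RefSeq table (GRCm38.p6). A probe was kept if at least 0.5 of its spots were well above background in either channel on 2 arrays, and the brightest probe stood for a gene. Ratios were fitted with lmFit and eBayes, a mean per strain, and tested against 0 with Benjamini-Hochberg adjustment over 15182 genes. Slide 2 was also fitted alone. Treated RNA carried the same dye on every array, so a dye bias of single genes was not removed. In simulated data with 200 changed genes of 14886, the *B. clausii* fit recovered 59.7% of log2 changes of 0.5 and 94% of 1. For *B. bifidum* it was 65.7% and 92.5%, and for *L. acidophilus* 37.3% and 83.6%. The contrast of *B. clausii* with *B. bifidum* recovered 23.9% and 68.7%. The simulated noise was drawn separately for each array and held no slide difference, unlike these data. The number of arrays limits the precision.

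All members were described with every probe. From each list at most 4 genes past the threshold with the smallest p were eligible to be named. Members and lists were chosen with earlier results of these data known. The planned mean signal was replaced by the median signal, which the files hold. Alternatives covered background, normalization, filters, probes, slide, replicate numbers and each array left out. A marker list and a gene among those most like *Tlr6* are not reported here in full.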

Additional observations from a re-analysis of the deposited data

Results flagged for a closer look

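*B. clausii* replicate 3 lay far from the other 3 arrays of slide 1 in the untreated Cy3 level of 3 members. Its log2 level was 6.467 for *Tlr1* against 7.69 to 7.73 on the others, 14.05 for *Tlr2* against 13.18 to 13.32, and 7.634 for *Tlr7*, where the highest of the others was 10.87. On slide 2, *B. bifidum* replicate 1 was at 11 for *Tlr4*, where the other 3 were at 11.03 to 11.04, and *B. bifidum* replicate 2 was at 10.16 for *Tlr7*, where they were at 10.80 to 10.90. Chance puts about 1 in 20 such groups past this limit. Of 16 groups of 4 arrays tested, 5 were flagged, 3 of them through the same array, *B. clausii* replicate 3.

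The log2 ratio differed between slides by test for *Tlr1* (-0.491), *Tlr2* (-0.607), *Tlr4* (-0.420) and *Tlr6* (-0.991).

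Ratios had opposite signs on every array of a pair of strains in 3 cases. The share of all genes with such opposite signs is not given here. *Tlr2* was above 0 on both *L. acidophilus* arrays and below 0 on all *B. clausii* arrays, with a difference of the means of 0.758 (limma adjusted p = 0.431). *Tlr1* did the same, at 0.428 from *B. clausii* (limma adjusted p = 0.431) and 0.482 from *B. bifidum* (limma adjusted p = 0.83). These contrasts were added after the values were seen, and 0.0132% and 0% of all genes were called in them. All *L. acidophilus* arrays lay on slide 1.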

How the results depend on the processing

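Counts are of members called out of 8 unless said otherwise, with the share of all genes called in brackets. For *B. clausii* the count of 0 (4.77%) became 1 of 5 tested with the strict filter (13.9%), 3 with slide as a block (25.3%), 5 on slide 2 only (56%) and 3 with the replicate number as a block (28.5%), all lower. For *B. bifidum* the 0 (1.73%) became 1 with slide as a block (14%), 4 on slide 2 only (38.8%) and 3 with the replicate block (14.9%). Between these strains the 0 (0.0263%) became 4 on slide 2 only (29.7%), and it stayed 0 with the replicate block. The 4 ratio differences between slides (25.9%) became 2 with the scanner's processed signals (15.7%), where *Tlr1* and *Tlr4* no longer passed, and the 4 untreated Cy3 differences (27.1%) became 1 with the replicate block (10.9%). For *L. acidophilus* the count was 0 in every alternative run. The causes were not tested.

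Leaving out each array in turn gave 0 to 5 members for *B. clausii*. It was 5 without *B. clausii* replicate 3 (36.1% of all genes called) and 1 without *B. bifidum* replicate 3 (11.5%). The count was 0 to 1 for *B. bifidum*, with 1 without its replicate 3 (13.7%). Between the strains it was 0 to 2, with 2 without *B. clausii* replicate 3 (14%). For the slide ratio it was 4 to 5 (18.5% to 38.7%). There *Tlr7* was added, higher without *B. clausii* replicate 3 and lower without *B. bifidum* replicate 3. For untreated Cy3 it was 2 to 6 (18.7% to 52.3%), and for *L. acidophilus* 0. The Cy3 call of *Tlr2* was lost without any 1 of the arrays other than *B. clausii* replicate 3, with limma adjusted p up to 0.0746. That of *Cd14* was lost with the scanner's processed Cy3 signal (-0.44, limma adjusted p = 0.0626). The slide difference of *Tlr7* was -0.35 without *B. bifidum* replicate 3 and with *B. clausii* alone, and 0.44 without *B. clausii* replicate 3 and with *B. bifidum* alone. The -0.35 rests on *B. clausii* replicate 3, where the *Tlr7* probe was not well above background in either channel. The fits of 1 strain were added after the data were seen. Sign changes of values that never passed were not counted.

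Same-numbered arrays deviated together at r of 0.30 to 0.46 between *B. clausii* and *B. bifidum* and of -0.09 to -0.06 between *L. acidophilus* and the others, and differently numbered arrays of the former strains on slide 2 at 0.26 and 0.37. Arrays of *B. clausii* and *B. bifidum* on different slides were at -0.45 to -0.32. The deviations of the 2 *L. acidophilus* arrays mirror each other by construction. With this and the slide division, the check cannot show whether equal numbers mean pairs. Not every same-numbered pair was over 0.1, and the numbers were not taken as pairs.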
